A study of Cricetiscus sungorus with 24 samples.

Results

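The genes described here encode the proteins of the mitochondrial ribosome (mitoribosome) and the TOM and TIM proteins that import polypeptides into mitochondria. They were chosen by name alone, as every gene whose symbol starts with Mrpl or Mrps and a number (large and small mitoribosomal subunit) or with Timm or Tomm and a number (translocases of the inner and outer membrane). The rule found 97 of 9681 genes in experiment 1 (49 Mrpl, 27 Mrps, 12 Timm and 9 Tomm genes) and 102 of 15842 genes in experiment 2 (49, 29, 14 and 10). All 97 members of experiment 1 were also in the table of experiment 2, which held 5 more (Mrps26, Mrps27, Timm29, Timm44 and Tomm6os). The rule itself used no measured value, although it was set with earlier results of these data known. Tomm6os was taken in by its name, although it denotes an RNA from the strand opposite Tomm6 and no protein. Tomm34 is a cytosolic cochaperone of import and no subunit of the translocase. The large and small subunit classes below follow the gene names alone, and the place of each protein in the ribosome was not checked.

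Mitoribosomes translate the few proteins that mitochondrial DNA encodes, which are core subunits of the respiratory chain and ATP synthase. All of their own proteins are encoded in the nucleus, made in the cytosol and brought in through the TOM pore of the outer membrane. From there TIM23 passes proteins with a presequence into the matrix, small TIM chaperones escort hydrophobic proteins across the intermembrane space, and TIM22 inserts carriers into the inner membrane. Kidney tubule cells are rich in mitochondria, which power the reabsorption of salt, glucose and other solutes.

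The study asked how season and prolactin (PRL) change the kidney of the Siberian hamster, which responds to short winter days. In experiment 1, 12 adult males were kept in long photoperiod (LP, 16 h of light per day, 4 animals) or in short photoperiod (8 h of light) for 12 weeks (SP12wk, 4 animals) or 28 weeks (SP28wk, 4 animals). In experiment 2, 12 adult females held in short photoperiod (8 h of light) for 8 weeks were injected intraperitoneally on 3 days with 18 µg of ovine PRL (PRL, 6 animals) or with the vehicle, a mixture of DMSO and saline (SAL, 6 animals). All animals were killed within a few hours of lights on, and each library came from the kidney of 1 hamster. The experiments differed in sex, photoperiod history, injection, flow cell and depth at once. These factors cannot be told apart, and levels are compared within an experiment only.

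Counts per library, with the 1 transcript of highest count for each gene, ran from 15688 to 57585 in experiment 1 and from 174053 to 756523 in experiment 2. One read was therefore worth 17.4 to 63.7 CPM (counts scaled to a library of 1000000) in experiment 1 and 1.32 to 5.75 CPM in experiment 2. The summed level of proximal tubule markers was 1402 to 2719 CPM in experiment 1 (6 of 8 markers listed) and 951 to 3487 CPM in experiment 2, whereas none of 4 adrenal markers was listed and skeletal muscle markers did not exceed 41.5 CPM. Thick limb and distal tubule markers summed to 155 to 666 CPM in the LP group, up to 502 CPM in SP12wk libraries and at most 277 CPM in SP28wk libraries. Brown adipose markers (2 of 3 listed) had no read in LP and reached 255 CPM in SP12wk and 39.5 CPM in SP28wk. The part of these markers in the member values was not tested. Red blood cell genes summed to 8908 to 44112 CPM. LP replicate 2 stood apart: subunits of oxidative phosphorylation (OXPHOS) took 3.07% of its counts against at least 7.04% in each of the other 3 LP libraries. Hence the shares, the main summaries over members and the fold changes against LP shown for Mrpl34, Timm22 and Timm13 are also given without it. Other single members are given with all libraries only. In whole kidney, fewer cells of a type and less RNA per cell cannot be told apart.

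Members were measured far more deeply in experiment 2. Their counts summed to 3252 in experiment 1, with a median of 11 per gene over the 12 libraries, and to 81957 in experiment 2, with a median of 431. In experiment 1, 43 of 97 members had fewer than 10 counts in all and 68 passed the filter of a count in at least 4 of 12 libraries, so that 29 were not tested. In experiment 2, 99 of 102 members passed a filter of at least 6 of 12 libraries. The exceptions were Mrps26, Timm29 and Tomm6os, with 5 counts each. Mrps26, a small subunit protein, ranged from 0 to 6.12 CPM in SAL and Timm29, a stabilizer of TIM22, from 0 to 4.57 CPM, both at the level of single reads. In experiment 2, 95 members had a count in every library.

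Reads were uneven among members, with small proteins in the lead. In experiment 2 the 3 members with most reads, Tomm7, Timm13 and Tomm6, took 21.5% of all member counts and the leading 10 took 46.9%. Tomm7 is a small subunit that modulates the TOM pore. It ranged from 1328 to 1786 CPM in SAL (median 1356) and from 1166 to 1696 CPM in PRL (median 1425). Timm13, a small TIM chaperone, ranged from 1096 to 1412 CPM in SAL (median 1381) and from 1046 to 1479 CPM in PRL (median 1239). Tomm6, another small TOM subunit, ranged from 954 to 1767 CPM in SAL (median 1185) and from 948 to 1301 CPM in PRL (median 1127). The ranges of these 3 genes overlap, so their order within the deep libraries is not firm. The same genes led in the shallow libraries: 9 of the 10 members with most reads were shared by both experiments, and the Spearman rank correlation of mean CPM over the 97 shared members was 0.85, a description across genes that share an alignment and a reference. These are orders of read counts. Transcript lengths were not at hand, so the counts are no order of molecules per length.

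**Figure D1:**
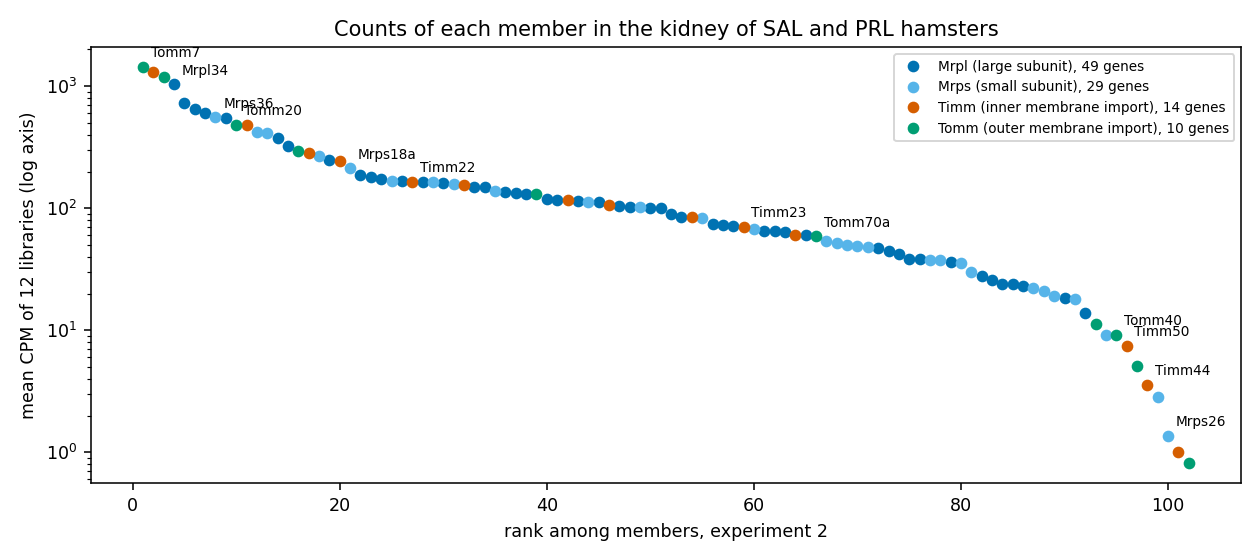
Mean CPM over the 12 libraries of experiment 2 (log axis) against rank for all 102 members, coloured by family. Tomm7 leads with 1432 CPM, the median over members is 94.9 CPM, and the tail below 10 CPM holds Tomm40, Timm50 and Timm44 of the translocase cores.

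Among large subunit genes, Mrpl34, Mrpl41, Mrpl52, Mrpl23 and Mrpl33 had most reads in both experiments. In SAL their mean levels were 1011 ± 127, 766 ± 79.2, 670 ± 189, 594 ± 76.1 and 570 ± 61.1 CPM (SD, n = 6). Mrpl34 thus stood above the other 4 in every SAL library except replicate 6, where Mrpl52 reached 1037 CPM against 1012 CPM for Mrpl34. Mrpl23 lies at the exit of the tunnel through which the growing chain leaves the ribosome. Among genes with a small subunit name, Mrps36 led with 557 ± 113 CPM in SAL, followed by Mrps21 with 434 ± 60.4 CPM and Mrps14 with 410 ± 117 CPM (SD, n = 6). The ranges of all 3 overlap in SAL, and in SAL replicate 3 Mrps21 was above Mrps36. Mrps36 carries a ribosomal name but is known as a subunit of the oxoglutarate dehydrogenase complex of the citric acid cycle. Genes named Mrpl summed to 2.44 ± 0.342 times the counts of genes named Mrps in SAL and 2.47 ± 0.168 times in PRL (SD, n = 6 each). Without Mrps36 in the Mrps sum these ratios were 2.92 ± 0.412 and 2.96 ± 0.184.

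The outer membrane pore and the TIM23 receptor and motor anchor were among the members with fewest reads in experiment 2. Tomm40, the channel of the outer membrane, was at 9.32 ± 6.37 CPM in SAL and 8.93 ± 3.94 CPM in PRL (SD, n = 6). Its relative Tomm40l was at 4.77 ± 2.97 and 5.47 ± 6.07 CPM (SD, n = 6). The receptors Tomm20 and Tomm22 were at 514 ± 152 and 121 ± 39.7 CPM in SAL, and Tomm70a, the receptor for carrier proteins, at 65.4 ± 20.9 CPM (SD, n = 6). In TIM23, the channel gene Timm23 was at 65.6 ± 10.6 CPM, below its partners Timm17a with 270 ± 91.7 CPM and Timm17b with 96.6 ± 14.9 CPM (SD, n = 6). The presequence receptor Timm50 and the motor anchor Timm44 were at 5.49 ± 4.3 and 3.74 ± 3.3 CPM (SD, n = 6), each without a read in 1 SAL library. Every Timm17a value in SAL lay above every Timm23 value, whereas the ranges of Timm50 and Timm44 overlapped. In experiment 1 Timm50 had 1 read in all 12 libraries, whereas Tomm40 with 9 reads ranked 47 of 97 by mean CPM. Reads were aligned to the mouse genome, and how closely each hamster transcript matches the mouse sequence was not tested.

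Members took on average a smaller share of the reads in LP than in SP, with overlap between the groups. In the LP libraries 0.833%, 0.258%, 0.694% and 0.998% of counts fell on members (0.696 ± 0.317%, SD, n = 4). The 4 SP12wk libraries had 0.801%, 1.15%, 1.26% and 1.27% (1.12 ± 0.218%), and the 4 SP28wk libraries 0.913%, 1.13%, 1.22% and 1.11% (1.09 ± 0.129%). The lowest SP12wk and SP28wk libraries lay within the LP range, and without LP replicate 2 the LP mean was 0.841 ± 0.153% (SD, n = 3). SAL and PRL libraries had 1.82 ± 0.126% and 1.82 ± 0.0909% (SD, n = 6 each). Mitoribosomal genes took 0.331 ± 0.17% in LP, 0.633 ± 0.164% in SP12wk and 0.584 ± 0.0878% in SP28wk, while the import genes took 0.365 ± 0.149%, 0.487 ± 0.0608% and 0.509 ± 0.0614% (SD, n = 4). Without LP replicate 2 the LP shares were 0.408 ± 0.0909% and 0.434 ± 0.0662% (SD, n = 3). Mitoribosomal counts were 0.862 ± 0.167 times the import counts in LP, 1.29 ± 0.24 times in SP12wk and 1.15 ± 0.167 times in SP28wk (SD, n = 4), with overlapping ranges, and 0.936 ± 0.0986 times in LP without replicate 2 (SD, n = 3). OXPHOS subunits took 7.91 ± 3.81% of counts in LP, 11.6 ± 0.739% in SP12wk and 9.64 ± 0.593% in SP28wk (SD, n = 4). The OXPHOS share in LP without replicate 2 was 9.52 ± 2.49% (SD, n = 3), close to that of SP28wk. The part of the OXPHOS values in the member values was not tested.

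**Figure D2:**
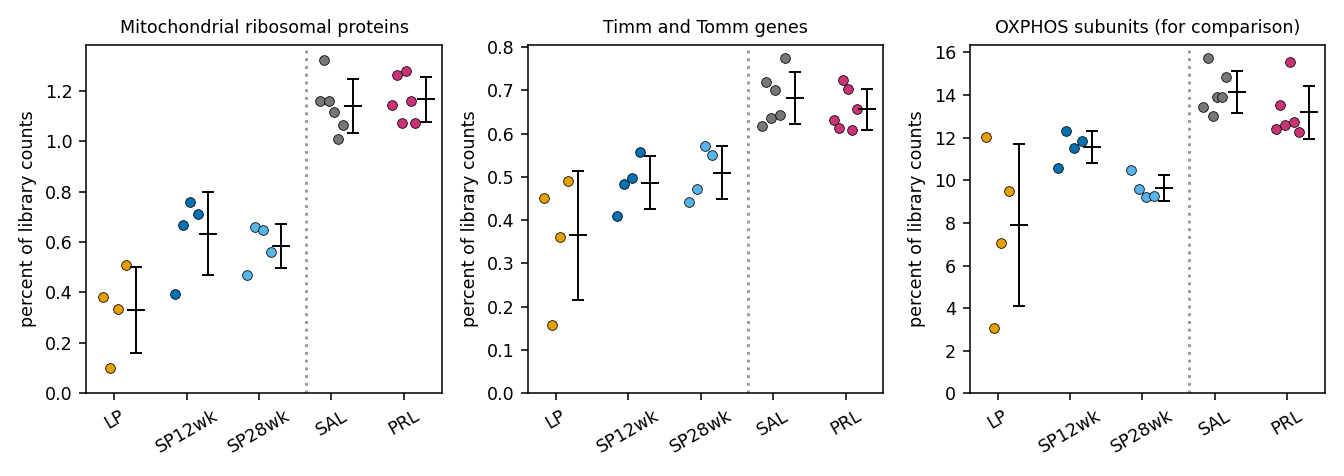
Percent of each library's counts on mitoribosomal genes, on Timm and Tomm genes and, for comparison, on OXPHOS subunits; points are libraries, and bars show the group mean ± SD. The LP library low in all 3 panels is replicate 2, and SAL and PRL overlap in each panel; the dotted line separates the experiments, which are not compared.

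SP12wk was compared with LP to see how the kidney of the winter state differs from that of the summer state. Most members were fitted higher in SP12wk, but none passed the test. Of 68 members tested, 56 had a log2 fold change above 0, or 82.4%, against 47.3% of all 5086 genes tested. Of the 68, 9 had no read in LP and passed the filter only through the SP libraries. Their direction against LP was therefore fixed in advance. Among all genes tested, 514 had no read in LP or none in SP12wk. Without LP replicate 2, 49 members were fitted higher, or 72.1%, against 48.8% of all genes. OXPHOS subunits were fitted higher in 71 of 82 genes with a median of 0.71, and cytosolic ribosomal proteins in 81 of 109 genes with a median of 0.21. Without LP replicate 2 these were 65 and 59 genes, with medians of 0.40 and 0.01. The members' median log2 fold change was 0.80, while the median of all genes was -0.0013. With genes that had no read in a group set at their bound, and genes with at most 3 reads in each group set at 0, these medians were 0.46 and 0. In the quasi-likelihood F test of edgeR, adjusted by Benjamini-Hochberg, 0 of 68 members were called at an adjusted p under 0.05, beside 0.0197% of all genes. At an unadjusted p under 0.05, 7 members were higher and 0 lower, beside 4.56% and 2.69% of all genes, and DESeq2 called 0 members. Genes with no read in LP, Mrpl13 among them, stayed in these numbers and could enter only as higher. The members' median was 0.48 without LP replicate 2, 0.52 without SP12wk replicate 4 and 1.24 without LP replicate 4, and the 7 became 3, 3 and 15. Without SP12wk replicate 1 the 7 became 11. Over all 5086 genes, those under that p in either direction numbered 369, and 266, 263, 454 and 417 in these settings in turn. By class, 29 of 35 large subunit genes, 14 of 16 small subunit genes and 13 of 17 import genes were fitted higher, with median log2 fold changes of 0.92, 0.85 and 0.31. In these classes 6, 2 and 1 genes had no read in LP, and the medians with bounds were 0.54, 0.54 and 0.24. Without LP replicate 2, 27, 12 and 10 genes were fitted higher, with medians of 0.51, 0.58 and 0.23. In no member did the SP12wk and LP libraries separate completely, beside 1.12% of all genes wholly higher and 1.55% wholly lower.

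Mrpl34 led this comparison. Its level was 141, 0, 277 and 311 CPM in LP, from 3, 0, 5 and 8 reads. In SP12wk it was 245, 1084, 1205 and 819 CPM, from 6, 17, 24 and 29 reads. SP12wk replicate 1 lay within the LP range, and the other 3 libraries lay above it. The log2 fold change was 2.23 ± 0.55 (SE), with an adjusted p of 0.0803 in edgeR, and it was called in 2 of 14 alternatives. The adjusted p was 0.0188 without LP replicate 4 and 0.0106 without SP12wk replicate 1, but 0.302 without LP replicate 2 (log2 fold change 1.76) and up to 0.909, its value in DESeq2. Mrpl13, a large subunit protein, had no read in the 4 LP libraries and 1, 0, 0 and 7 reads in SP12wk. Pooled over the group this was at least 2.31-fold higher in SP12wk, set against 3 reads over the 4 LP libraries, with an adjusted p of 0.577 in edgeR, and most of it rested on replicate 4.

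In the other direction the smallest p values belonged to Timm22 and Tomm70a. Timm22, the channel of the carrier translocase, was at 141, 449, 333 and 272 CPM in LP and at 163, 191, 0 and 170 CPM in SP12wk, with overlap. Its log2 fold change was -0.88 ± 0.63 (SE; adjusted p = 0.721, edgeR), and -0.80 without LP replicate 2. Tomm70a was at 94.1, 56.1, 166 and 77.7 CPM in LP against 40.9, 63.7, 50.2 and 56.5 CPM in SP12wk, values worth 1 to 3 reads each. Its log2 fold change was -0.64 ± 0.92 (SE; adjusted p = 0.914, edgeR). Neither passed the test. In this experiment the counts of both nearly repeat those of another gene, as described below.

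SP28wk was compared with LP to see how animals that had stayed in short days until their spontaneous return towards the summer state differ from animals in long days. This comparison shares its LP libraries with the one before. Members were again mostly fitted higher: 58 of 68, or 85.3%, against 58.5% of all genes. Of the 68, 9 had no read in LP and could again only be fitted higher. Among all genes tested, 376 had no read in LP or none in SP28wk. The members' median log2 fold change was 0.93 (0.64 with bounds) against 0.18 for all genes (0 with bounds). One member, Mrpl34, was called, or 1 of 68 beside 0.216% of all genes. At an unadjusted p under 0.05, 16 members were higher and 0 lower, beside 6.61% and 1.97% of all genes. Genes with no read in LP, Mrpl28 and Timm17b among them, stayed in these numbers and could enter only as higher. The 16 became 8 without LP replicate 2, 9 without LP replicate 3, 10 without SP28wk replicate 4 and 23 without LP replicate 4. Over all 5086 genes, those under that p in either direction numbered 436, and 242, 290, 375 and 510 in these settings in turn. The number of members was 3 in DESeq2, 6 of 41 with the stricter filter, and 9 both with library totals and with counts added over transcripts. For all genes it was 120 in DESeq2, 180 of 2607 with the stricter filter, 378 with library totals and 370 of 5222 with counts added. Without LP replicate 2 the members' median was 0.58 and 48 members were fitted higher, or 70.6%, against 0.09 and 59.4% for all genes. With library totals 50 members were fitted higher, or 73.5%, against 44.2% of all genes. By class, 32 of 35 large subunit genes, 12 of 16 small subunit genes and 14 of 17 import genes were fitted higher, with medians of 1.00, 0.54 and 0.98. In these classes 6, 2 and 1 genes had no read in LP, and the medians with bounds were 0.64, 0.47 and 0.81. Without LP replicate 2, 27, 10 and 11 genes were fitted higher, with medians of 0.56, 0.40 and 0.61. OXPHOS subunits, measured the same way, were fitted higher in 77 of 82 genes with a median of 0.54, and cytosolic ribosomal proteins in 103 of 109 genes with a median of 0.57. Without LP replicate 2 these were 62 and 92 genes, with medians of 0.21 and 0.28.

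In SP28wk, Mrpl34 was at 1028, 954, 1000 and 747 CPM, from 26, 23, 35 and 43 reads, against 141, 0, 277 and 311 CPM in LP. The groups did not overlap, as was so for 4 of 68 members (all higher in SP28wk) and for 1.57% of all genes in that direction. Of the 4, Mrpl28 had no read in LP, so it could separate only upward. The log2 fold change of Mrpl34 was 2.57 ± 0.54 (SE), with an adjusted p of 0.0015 in edgeR. It was called in 12 of 14 alternatives. Without LP replicate 2, the library with no Mrpl34 read, the log2 fold change was 2.08 and the adjusted p 0.0108. The call was lost in DESeq2, with an adjusted p of 0.0692, and when counts were added over transcripts, with an adjusted p of 0.654, although the log2 fold changes were 2.43 and 2.46. Mrpl34 has 1 transcript in the table, so its own counts were the same in that alternative.

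The other 3 members without overlap were Mrps14, Mrpl23 and Mrpl28, of which Mrpl28 was singled out after its values were seen. Mrps14, a small subunit protein, had 0, 0, 0 and 1 reads in LP, 0, 3, 1 and 4 in SP12wk and 2, 2, 4 and 7 in SP28wk. Its log2 fold change in SP28wk against LP was 3.00 ± 1.10 (SE; adjusted p = 0.384, edgeR). Mrpl23 was at 188, 0, 166 and 194 CPM in LP and at 198, 415, 371 and 260 CPM in SP28wk, so that the lowest SP28wk library lay just above the highest LP library. Its log2 fold change was 1.40 ± 0.60 (SE; adjusted p = 0.516, edgeR). Mrpl28, a large subunit protein, had no read in LP and 1, 3, 1 and 3 reads in SP28wk, at least 1.56-fold higher when set against 3 reads over the LP group (adjusted p = 0.447, edgeR). None of these 3 passed the test.

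Among the import genes, Timm13 had the smallest p in SP28wk against LP. It was at 423, 0, 222 and 893 CPM in LP, 286, 829, 954 and 763 CPM in SP12wk and 790, 830, 1314 and 1476 CPM in SP28wk. LP replicate 4 was the one LP library within the SP28wk range. The log2 fold change was 1.73 ± 0.49 (SE; adjusted p = 0.106, edgeR), and 1 of 14 alternatives called it. The adjusted p was 0.0017 without LP replicate 4, 0.413 without LP replicate 2 (log2 fold change 1.27) and up to 0.996, its value in DESeq2. Timm8b, another small TIM chaperone, was at 329, 0, 277 and 660 CPM in LP and at 632, 664, 428 and 486 CPM in SP28wk. These overlapped (log2 fold change 0.98 ± 0.51 SE, adjusted p = 0.591, edgeR). Timm8a1, the relative of Timm8b, went the other way on average. It was at 235, 0, 166 and 38.8 CPM in LP and at 79, 0, 57.1 and 69.5 CPM in SP28wk, with overlap. Timm17b had no read in LP and 0, 2, 4 and 2 reads in SP28wk, at least 1.56-fold higher by the same bound (adjusted p = 0.437). The smallest p values for lower levels were those of Mrpl16 and Tomm40. Mrpl16, a large subunit protein, had 3, 0, 2 and 1 reads in LP and 0, 1, 1 and 1 in SP28wk (log2 fold change -1.26 ± 1.08 SE, adjusted p = 0.83). Tomm40 had 1, 2, 0 and 1 reads in LP and 1, 0, 0 and 1 in SP28wk (log2 fold change -1.18 ± 1.18 SE, adjusted p = 0.881). Both rest on a handful of reads.

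**Figure D3:**
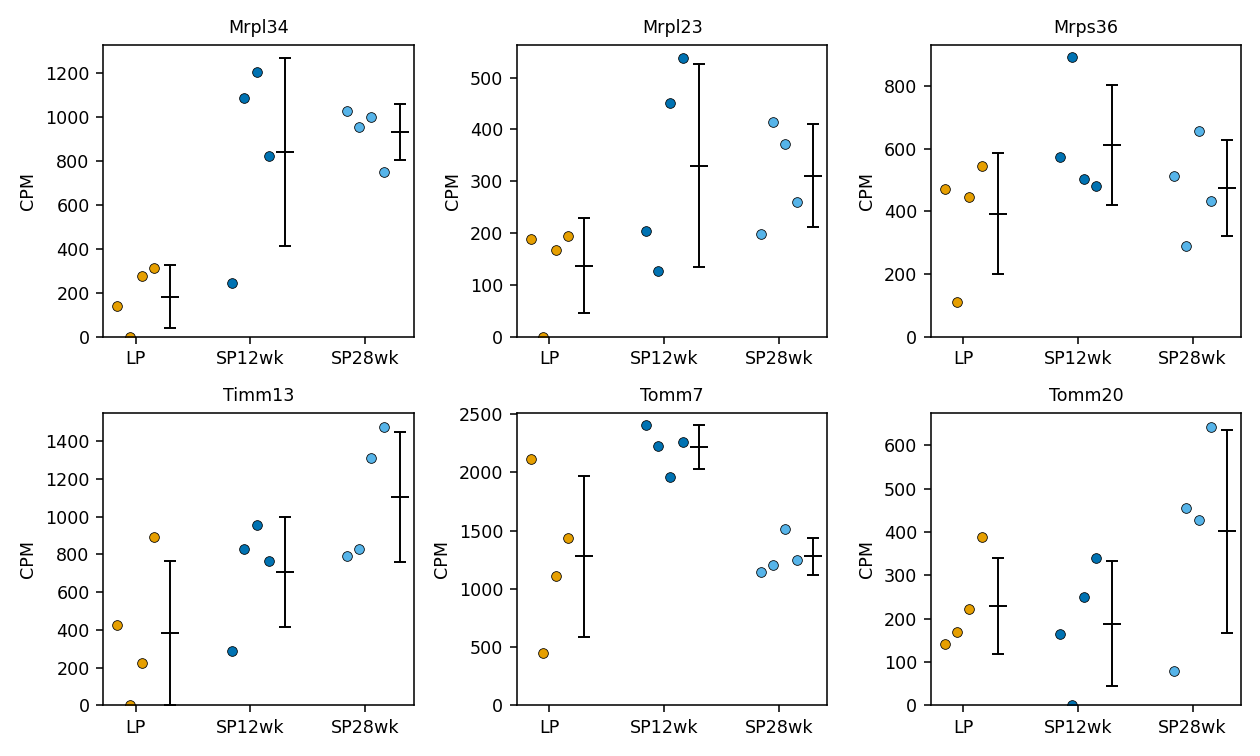
CPM of 6 members in the 4 LP, 4 SP12wk and 4 SP28wk libraries; points are libraries, and bars beside them show mean ± SD. Mrpl34 in SP28wk (747 to 1028 CPM) lies wholly above LP (0 to 311 CPM), and Tomm7 in SP12wk (1958 to 2412 CPM) lies wholly above SP28wk (1146 to 1514 CPM).

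SP28wk was compared with SP12wk to see what changed between the winter state and the later state in the same short days. Here the fitted values of members resembled those of all genes. Of 68 members, 40 were fitted higher, or 58.8%, against 58.2% of all genes, and both medians were 0.16. None was called in edgeR, beside 0.138% of all genes, nor in DESeq2. At an unadjusted p under 0.05, 1 member was higher and 0 lower, beside 4.6% and 1.49% of all genes. The medians of large and small subunit genes were 0.09 and 0.03 and that of the import genes was 0.64, with 13 of 17 import genes fitted higher. The members' median ranged from -0.07 (without SP12wk replicate 1) to 0.43 (without SP12wk replicate 4).

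The member with the smallest p was Tomm20, the receptor for presequences. It was at 141, 168, 222 and 388 CPM in LP, 163, 0, 251 and 339 CPM in SP12wk and 79, 456, 428 and 643 CPM in SP28wk. Its lowest SP28wk library lay inside the SP12wk range, and the log2 fold change was 1.17 ± 0.53 (SE; adjusted p = 0.738, edgeR). Timm13 followed with a log2 fold change of 0.86 ± 0.46 (SE; adjusted p = 0.902, edgeR). The pair with the smallest p values for lower levels was Mrpl2, which lies near the catalytic centre of the large subunit, and Mrps24. Mrpl2 had 1, 1, 4 and 3 reads in SP12wk and 1, 0, 0 and 3 in SP28wk, and Mrps24 had 1, 3, 2 and 1 reads and 0, 1, 0 and 2 reads. Their log2 fold changes were -1.48 ± 0.95 and -1.51 ± 1.05 (SE; adjusted p = 0.977 for both).

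Small TOM subunits went opposite ways without passing the test. Tomm7 was at 2412, 2231, 1958 and 2261 CPM in SP12wk and at 1146, 1203, 1514 and 1250 CPM in SP28wk. Its groups did not overlap, yet the log2 fold change of -0.62 ± 0.45 (SE) had an adjusted p of 0.98 in edgeR. In LP it was at 2117, 449, 1110 and 1437 CPM. Tomm6 was at 409, 574, 402 and 565 CPM in SP12wk and at 751, 664, 657 and 660 CPM in SP28wk, again without overlap (log2 fold change 0.64 ± 0.48 SE, adjusted p = 0.98). Besides Tomm7, Mrpl52 and Mrps17 were lower in every SP28wk library than in every SP12wk library. Thus 1 member was wholly higher and 3 were wholly lower, beside 1.85% and 1.53% of all genes. Mrps21, in contrast, was at 94.1, 0, 0 and 233 CPM in LP, 81.7, 191, 151 and 198 CPM in SP12wk and 198, 207, 200 and 278 CPM in SP28wk, and its log2 fold change in SP28wk against LP was 1.55 ± 0.66 (SE; adjusted p = 0.521).

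**Figure D4:**
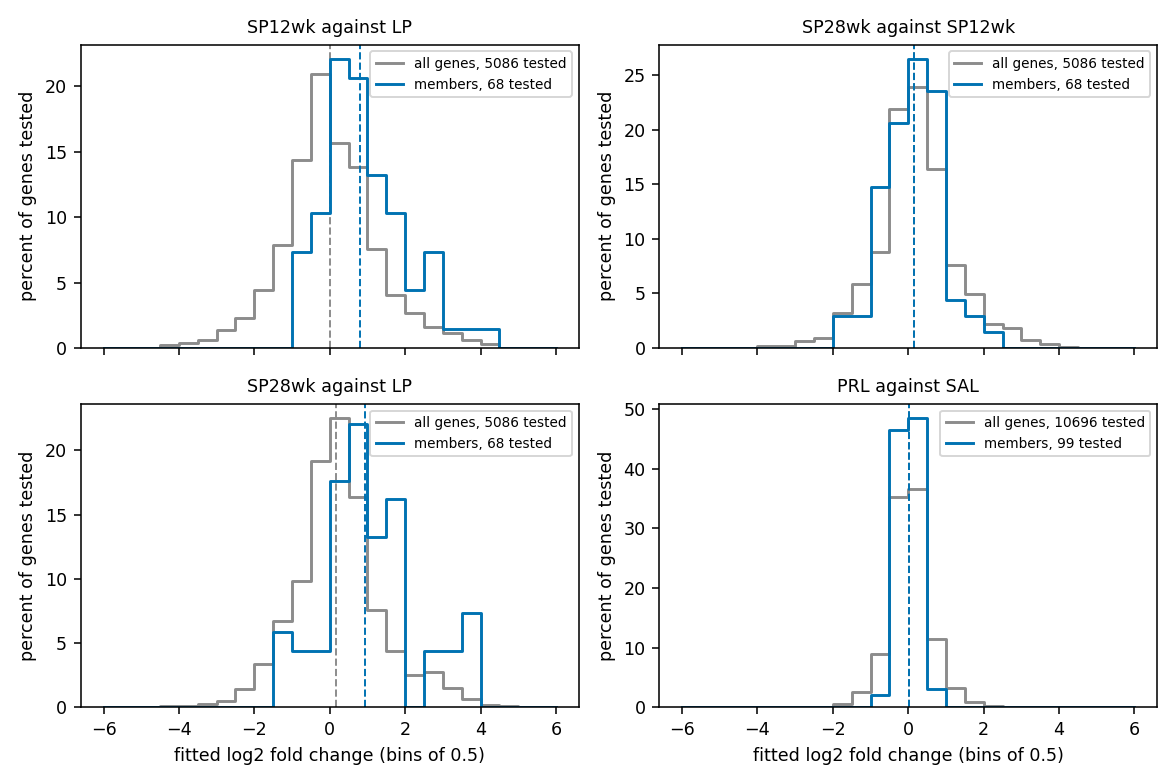
Distribution of fitted log2 fold changes (bins of 0.5) of members (blue) and of all genes tested (grey) in the 4 comparisons, as percent of genes tested; dashed lines are medians. The member median lies right of the grey one in both comparisons against LP (0.80 and 0.93 against -0.0013 and 0.18) and beside it in SP28wk against SP12wk and in PRL against SAL.

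PRL was compared with SAL to see what 3 days of the hormone did in short-day kidneys. Most members could be measured in every library, and with all libraries none differed between the groups by the test. Of 99 members tested, 51 were fitted higher and 48 lower, 51.5% higher against 52.6% of all 10696 genes tested. The median log2 fold change was 0.01, against 0.03 for all genes. By edgeR, 0 members were called, as were 0% of all genes, and by DESeq2 0 members. At an unadjusted p under 0.05, 2 members were higher and 0 lower, beside 2.54% and 2.34% of all genes. In no member did the PRL and SAL libraries separate completely, beside 0.112% and 0.028% of all genes. For the 45 members with at least 500 counts, log2 fold changes lay between -0.32 and 0.43, with a median SE of 0.21. The 95% intervals of single members among these 45 reached from -0.97 to 1.10 at the widest, the one of Timm22. The median coefficient of variation of these 45 was 20.1% in SAL and 22.0% in PRL, where counting alone would give 13.1% and 13.7%. Leaving out 1 library at a time, the members fitted higher ranged from 37.4% without SAL replicate 5 to 56.6% without SAL replicate 1. Without SAL replicate 6, 44.4% of members were fitted higher. In that setting 27 of all genes were called higher and 1 lower, with 1 member, Timm22, among them.

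The 2 members with an unadjusted p under 0.05 were Mrpl54 and Mrps2. Mrpl54, a large subunit protein, ranged from 18.4 to 45.9 CPM in SAL (median 31.6) and from 40.2 to 66.1 CPM in PRL (median 56.6). SAL replicates 1 and 6 reached into the PRL range, and the log2 fold change was 0.69 ± 0.27 (SE; adjusted p = 0.755, edgeR). Mrps2, a small subunit protein, ranged from 24.5 to 54.5 CPM in SAL (median 46.2) and from 35.6 to 109 CPM in PRL (median 64.7). Its log2 fold change was 0.56 ± 0.27 (SE; adjusted p = 0.997, edgeR). The smallest p values for lower levels belonged to Tomm70a and Mrpl1, a protein of the stalk by which spent tRNA leaves. Tomm70a ranged from 39 to 101 CPM in SAL and from 25.5 to 68.9 CPM in PRL, and Mrpl1 from 13.7 to 36.4 CPM and from 11.3 to 41.4 CPM. Their log2 fold changes were -0.45 ± 0.27 and -0.55 ± 0.34 (SE; adjusted p = 0.999 for both, edgeR).

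The leading genes of each class were at like levels in SAL and PRL. Mrpl34, the member called in SP28wk against LP, ranged from 884 to 1251 CPM in SAL (median 992) and from 695 to 1494 CPM in PRL (median 1053), and the interval of its log2 fold change was -0.37 to 0.40. For Timm13 that interval was -0.50 to 0.20, for Tomm7 -0.42 to 0.29 and for Mrps36 -0.47 to 0.31. Differences of 2-fold in either direction thus lie outside the 95% intervals of these 4 genes. In the translocases, Timm17b was at 96.6 ± 14.9 CPM in the SAL group and 137 ± 47.1 CPM in the PRL group (SD, n = 6), with a log2 fold change of 0.43 ± 0.23 (SE; adjusted p = 0.999, edgeR), and its relative Timm17a was at 270 ± 91.7 and 296 ± 42.9 CPM. All 6 TIM23 genes were fitted higher in PRL with a median of 0.11, beside 52.6% of all genes. Of these, Timm50 and Timm44 rested on 29 and 15 reads, and the mean of Timm44 was 3.74 CPM in SAL and 3.39 CPM in PRL. Fitted lower were 5 of 6 small TIM chaperones, the 3 small TOM subunits and 3 of 4 TOM receptor and pore genes, with medians of -0.22, -0.14 and -0.23. None of these members passed the test.

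**Figure D5:**
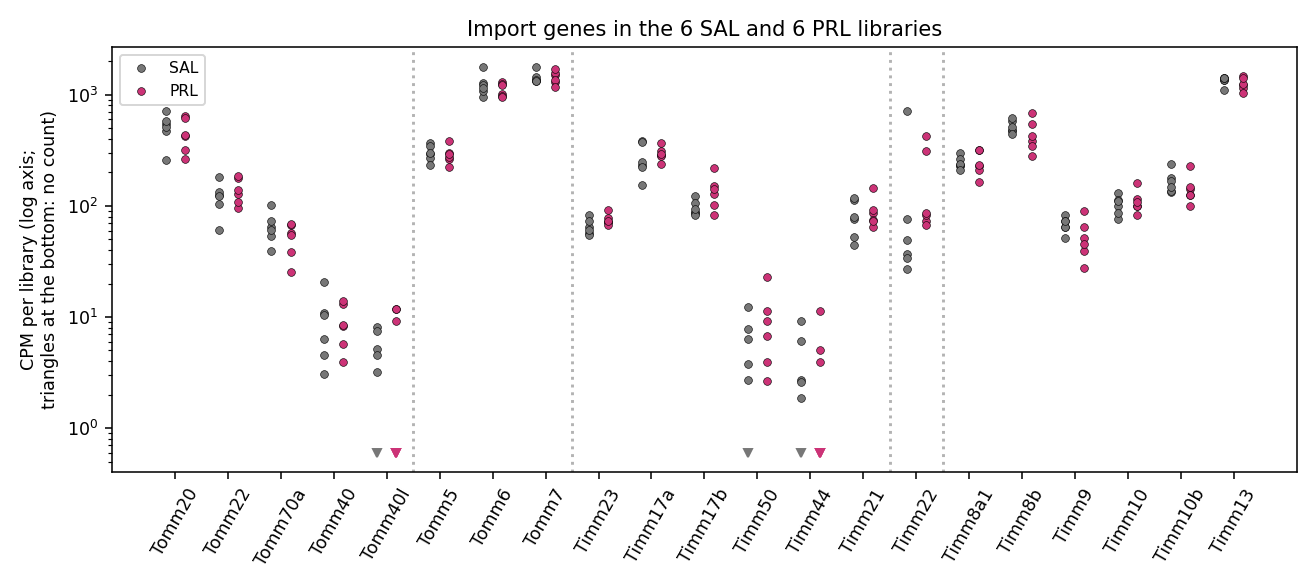
CPM per library (log axis) of 21 import genes in the 6 SAL and 6 PRL libraries of experiment 2, ordered as TOM receptors and pores, small TOM subunits, TIM23 subunits, Timm22 and small TIM chaperones; triangles mark libraries without a read. SAL and PRL overlap for every gene, and Timm22 ranges from 27.0 to 714 CPM within SAL.

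Timm22 stood out by its spread rather than by a group difference. It was at 27, 49.4, 36.5, 33.9, 76.5 and 714 CPM in the SAL libraries and at 73.7, 67.4, 427, 82.8, 86.2 and 309 CPM in the PRL libraries. One SAL library and a pair of PRL libraries thus lay far above the rest. The log2 fold change was 0.07 ± 0.53 (SE; adjusted p = 0.999, edgeR), and 1 of 18 alternatives called it, the one without SAL replicate 6, with an adjusted p of 0.0031. The counts of Timm22 nearly repeat those of unrelated genes: Dennd4a, Iho1 and Kif3a had 602, 654 and 656 reads in experiment 2 against 648 for Timm22, and the sums of absolute differences over the 12 libraries were 7.72%, 9.57% and 8.64% of the Timm22 count. In experiment 1 they had 60, 59 and 62 reads against 64. Its level is therefore uncertain, since the same reads may have been given to several genes.

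Other members had such a partner too, 8 in all. Mrps18c had 733 reads in experiment 2 and the predicted gene Gm15946 had 725, and in experiment 1 they had 54 and 50. Mrps33 and Bbs12 had 222 and 226 reads, and Tomm34 and Etl4 had 49 and 47. Tomm70a and Nedd4l had 25 and 21 reads in experiment 1, but 253 and 103 in experiment 2. The levels of these members are uncertain in the same way, that of Tomm70a in experiment 1 only. Tomm6os is by its name read from the strand opposite Tomm6, and the sources used here do not say whether strand was used in counting.

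Members that are close relatives were at unlike levels. Mrps18a, Mrps18b and Mrps18c, versions of 1 bacterial ribosomal protein, were at 214 ± 49.7, 41.6 ± 16.9 and 169 ± 25.1 CPM in SAL and at 210 ± 35.7, 55 ± 14.6 and 169 ± 42.1 CPM in PRL (SD, n = 6 each). Mrps18b lay below both others in every SAL and PRL library. Timm8a1 was at 245 ± 32.4 CPM in SAL, below Timm8b with 518 ± 69.2 CPM, and Timm10 at 103 ± 19.2 CPM, below Timm10b with 167 ± 39.7 CPM (SD, n = 6). These too are read counts and not levels per length. Tomm34, the cochaperone, had 49 reads in experiment 2 and was at 10 ± 4.45 CPM in SAL and 12.7 ± 3.66 CPM in PRL (SD, n = 6).

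Other genes of the same processes were described from lists. In PRL against SAL no gene was called among 12 mitochondrial translation factors, 14 mitochondrial tRNA synthetases, 16 assembly factors of the mitoribosome, 14 genes of the import motor and presequence processing and 12 of membrane insertion that were tested. Their median log2 fold changes were 0.05, 0.13, 0.01, -0.07 and 0.04. In experiment 1 few could be tested: 0 translation factors, 2 tRNA synthetases and 2 assembly factors. Of 12 genes of the import motor and presequence processing, 7 were fitted higher in SP12wk and 10 in SP28wk than in LP (7 in both without LP replicate 2), and 0 were called. Of 6 genes of membrane insertion, 1 was fitted higher in SP12wk (median -0.50) and 3 in SP28wk (median 0.18). Of 3 mitoribosomal proteins without an Mrp name, 1 was fitted higher in SP12wk (median -0.03) and 2 in SP28wk (median 0.52). OXPHOS subunits were fitted lower in PRL in 69 of 86 genes with a median of -0.13, and 0 were called. Members numbered 12.9 ± 0.669 reads per 100 OXPHOS reads in SAL and 13.9 ± 0.588 in PRL (SD, n = 6 each), with overlapping ranges.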

How the data were processed

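Kidney RNA of 24 hamsters was sequenced as nanopore cDNA in a pair of experiments with 12 libraries each. Per the methods, the authors called bases with Guppy and prepared the reads with Porechop and Filtlong before alignment (Minimap2, mouse genome). The deposited values are estimated counts of each transcript, not scaled. The submitters' processing notes also name Salmon, and the sources used here do not say how reads were shared among transcripts. The methods name a direct cDNA kit and the labels a PCR-cDNA kit. Most estimated counts are whole, and they were rounded for the tests.

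For each gene the transcript with the highest total was taken, and CPM was its count scaled to 1000000 such counts per library. Counts were fitted with the quasi-likelihood test of edgeR 4.0.16 (R 4.3.3, TMM scaling), 1 model per experiment, all genes with a count in at least 4 (experiment 1) or 6 (experiment 2) of 12 libraries, with Benjamini-Hochberg adjustment over 5086 and 10696 genes. A gene was called at an adjusted p under 0.05. The SE is the log2 fold change over the square root of F. Changes were planted in simulated counts, only in genes with at least 3 counts per library on average. Of 4-fold changes, 46% were recovered for SP12wk against LP and 94% for PRL against SAL, and of 2-fold changes 6% and 28%. Members of experiment 1 had a median of 11 counts over the 12 libraries, below that level, so recovery was not measured for most of them. Bounds and 95% intervals cover counting or fit error only, and a count of 0 was set at 3 reads over the group. In medians with bounds, a gene was set at 0 if its bound crossed 0 or if neither group had more than 3 reads. Alternatives were counts added over transcripts, no filter, a stricter filter, DESeq2 1.42.0, library totals, a replicate block and each library left out.

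Members named were the 5 Mrpl, 5 Mrps and 6 import genes with most reads per experiment, the 2 smallest p in each direction of a comparison, members called, import genes by role and pairs of relatives. The members and lists were chosen with earlier results of these data known. Replicate numbers did not pair the animals. No 2 libraries of a group agree within sampling noise. Gene lengths, sequences and coordinates were not analysed here.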

Additional observations from a re-analysis of the deposited data

Results flagged for a closer look

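In groups with at least 10 counts of a named member, 14 values of 12 genes lay far from the others of their group, by Dixon's criterion, out of 153 groups examined. Chance gives about 1 in 20 groups. In experiment 1, LP replicate 2 had 0 CPM for both Mrpl23 and Tomm6, where the nearest LP libraries had 166 and 555 CPM. SP12wk replicate 3 had 0 CPM of Timm22, SP28wk replicate 4 had 278 CPM of Mrps21 and SP28wk replicate 1 had 751 CPM of Tomm6, against 207 and 664 CPM in the nearest libraries for the last 2.

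In experiment 2, SAL replicate 6 was high for Timm22 (714 CPM, with 76.5 CPM next), Mrpl52 (1037 CPM) and Tomm7 (1786 CPM). SAL replicate 1 had 1251 CPM of Mrpl34, and SAL replicate 3 had 1096 CPM of Timm13, the lowest of its group. In PRL, replicate 4 had 41.4 CPM of Mrpl1, replicate 2 had 83.3 CPM of Mrps18b, replicate 3 had 229 CPM of Timm10b and replicate 5 had 144 CPM of Timm21, each the highest of the 6.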

How the results depend on the processing

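The genes called in SP12wk against LP (1) became 0 under DESeq2, summed transcripts, library totals, no filter, the replicate block and the stricter filter. In SP28wk against SP12wk, 7 became 2 with DESeq2, 0 with sums and 2 with the stricter filter. In SP28wk against LP, 11 became 2, 0 and 5 in the same order, and the 1 member called became 0 with DESeq2 and 0 with sums. In PRL against SAL, 0 became 1 with sums, 92 without a filter and 52 with the replicate block, with 0 members among them. With sums the members' share of counts was 0.483% in LP, 0.877% in SP12wk, 0.831% in SP28wk, 1.56% in SAL and 1.55% in PRL. The causes were not tested.

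Leaving out 1 library at a time, genes called ranged from 0 to 9 in SP12wk against LP, 2 to 7 in SP28wk against SP12wk, 10 to 52 in SP28wk against LP (52 without LP replicate 4) and 0 to 50 in PRL against SAL (50 without PRL replicate 4). Members called ranged from 0 to 1, 0 to 0, 1 to 2 and 0 to 1, and the median of SP28wk against SP12wk from -0.072 to 0.43. With library totals the medians of all genes against LP moved to -0.17 and -0.16, and the members' medians stood 0.79 and 0.80 above them, against 0.80 and 0.76 with TMM. No log2 fold change of a called member turned its direction.

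Same-numbered libraries had correlations of deviations from -0.09 to 0.17 in experiment 1 and -0.15 to 0.20 in experiment 2. A library correlated best with its own number in 6 of 24 and 2 of 12 cases, so the numbers were not taken to pair animals, and no member call in experiment 1 changed with the block. Experiment 1 had lower depth, fewer animals per group and a larger biological coefficient of variation (39.2% against 27.2%). Its simulated 2-fold changes, planted in genes with at least 3 counts per library on average, were recovered in 6% of these genes. In experiment 2 it was 28%.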
